A study of Rattus norvegicus with 28 samples.

Results

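The comparison described here is withdrawal day 35 against withdrawal day 2 in the orbitofrontal cortex of saline rats, the drug-free change over the same 33 days in which methamphetamine (meth) rats were studied. Its members were chosen by their labels alone: the 4 libraries of day 35 saline (replicates 9 to 12) and the 4 libraries of day 2 saline (replicates 13 to 16), 8 of the 28 samples listed for the series. The rats were Sprague Dawley animals of a sex and age the labels do not state, trained to self-administer saline intravenously and taken for dissection straight from the home cage. Each library held poly(A) RNA from cortex punches of 2 rats, so a replicate is a pool and 16 saline rats are represented. Neither saline group had taken the drug, and time since training cannot be told apart from age. The meth groups set beside them, day 2 meth (replicates 1 to 4) and day 35 meth (replicates 5 to 8), are pools of 2 Sprague Dawley rats that self-administered meth intravenously and were otherwise taken in the same way. The rats were trained in 2 separate runs, and no label ties a library to a run.

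The orbitofrontal cortex is a frontal region that tracks the value of rewards and of the cues that announce them. In rats that have taken meth, responding to drug cues is known to grow over weeks of withdrawal, which is called incubation of craving. Saline rats handled and housed for the same time carry changes with time and age that occur without the drug. They serve as the baseline for reading a change over withdrawal in drug-taking rats, though their libraries also differ between days in sequencing depth and index.

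The deposited values are read counts per Ensembl gene, and levels are given as CPM, counts per M gene counts of a library (M, mega) after TMM scaling. None of the 26405 identifiers could be paired with a symbol (0 matched), so genes are described by direction, size and level, and the labelled tissue was not checked against marker genes. Gene counts were 20.33 to 23.54 M in the day 2 and 31.85 to 48.47 M in the day 35 saline libraries, ranges that did not overlap (exact permutation test, two-sided p = 0.0286, the smallest that 4 against 4 can give; 0.10 after Benjamini-Hochberg adjustment over 7 library measures). The 4 libraries of a group also share a sequencing index that the other groups do not carry, so depth, index and day cannot be told apart from the labels. After all libraries were thinned to the shallowest depth, 17434 to 17555 genes had a count at day 2 and 17450 to 17594 at day 35. The share of gene counts taken by the 50 most abundant genes was 17.13 to 18.67% at day 2 and 17.78 to 19.12% at day 35.

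The 8 saline libraries resembled each other closely across days. Over the 13540 genes at 1 CPM or more, the log2 levels of a library correlated across genes by 0.99303 to 0.9948 on average with the other libraries of its own day, and by 0.99348 to 0.99429 with the libraries of the other day, values that interleave. Genes are not independent replicates, and these values are a description. In a principal component analysis of the same genes the first component (24.5% of the variance) did not part the days, as day 2 libraries ran from -9.61 to 15.26 and day 35 libraries from -12.92 to 9.79. The second component (17.1%) did, with day 2 libraries at 2.58 to 13.63 and day 35 libraries at -10.27 to -3.57 (exact permutation test, two-sided p = 0.0286, adjusted 0.10). The spread between pools, as the common biological coefficient of variation, was 6.39% at day 2 and 7.24% at day 35, against 6.09% and 5.25% in the meth groups. It was 5.38% at day 2 without replicate 13 and 6.08% at day 35 without replicate 11, lower in both cases than with all 4 pools.

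No gene passed the test for a change between day 2 and day 35 in saline rats. Of 15413 genes tested, edgeR's quasi-likelihood test called 0 (0% of those tested) at a Benjamini-Hochberg adjusted p under 0.05, and limma-voom called 0. At an unadjusted p under 0.05 stood 648 genes higher and 690 lower at day 35, together 8.68% of the genes tested where 5% would fall with no difference. A fit of the 8 saline libraries alone, without the spread shared with the meth groups, gave 415 higher and 519 lower of 14810 genes tested. This is a smaller share than 8.68% and nearer to 5%. With fewer libraries to estimate the spread, that fit also has less power. DESeq2 called 37 genes, 10 higher and 27 lower, which is 0.484% of the 7644 genes to which it gave an adjusted p. Without day 2 saline replicate 14 edgeR called 2 genes and without day 35 saline replicate 9 it called 1, all lower at day 35.

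For most genes the fit of all 16 libraries bounded the saline change tightly. The 95% interval of the fold change lay wholly within 1.2-fold in either direction for 9182 genes (59.6%), within 1.5-fold for 12876 (83.5%) and within 2-fold for 14542 (94.3%). These are intervals for each gene alone, without adjustment over genes. They use a spread estimated together with the meth libraries. Its common value was 6.25%, below the 6.39% of day 2 saline and the 7.24% of day 35 saline. The bounds were not counted in a fit of the saline libraries alone, where the intervals may be wider. The precision followed the level of the gene. Among the 7329 genes at 10 to 100 CPM, 86.4% were bounded within 1.2-fold and 98.9% within 1.5-fold. Among the 2014 genes at 100 to 1000 CPM, 95.3% were bounded within 1.2-fold and 99.7% within 1.5-fold, and all 92 genes at 1000 CPM or more were bounded within 1.5-fold. Of the 1873 genes under 1 CPM, 8.44% were bounded within 1.5-fold and 60.1% within 2-fold. The interval reached beyond 2-fold for 871 genes, and 747 of these were under 1 CPM. A change over 2-fold was therefore left unexcluded mainly among scarce transcripts.

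**Figure D1:**
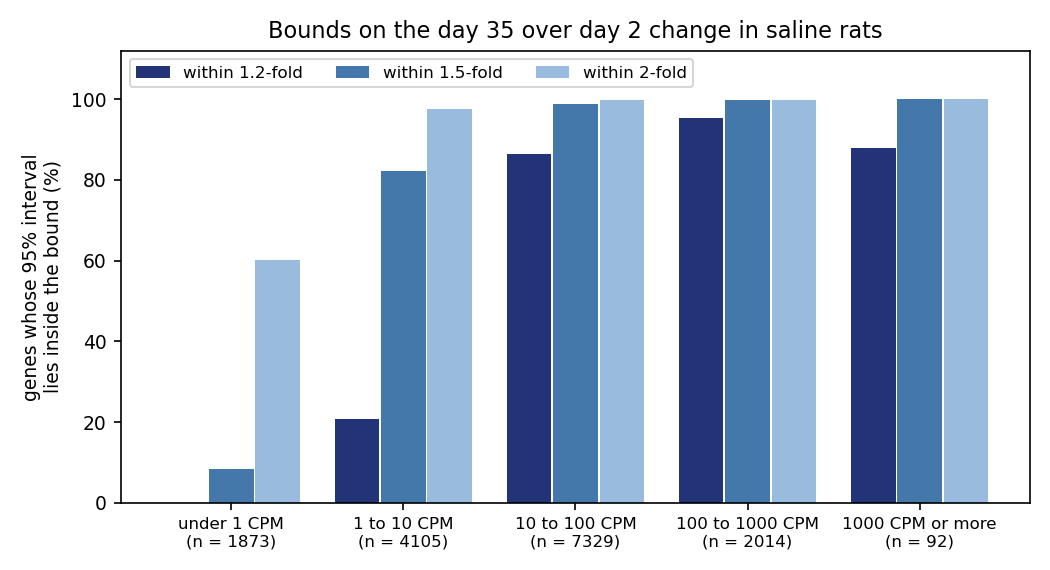
Share of genes (vertical axis, percent) whose 95% interval of the day 35 over day 2 change in saline rats lies inside 1.2-, 1.5- or 2-fold, by mean level in the 8 saline libraries (horizontal axis, CPM, with the number of genes). The bars for 1.2-fold rise from 0% under 1 CPM to 95.3% at 100 to 1000 CPM and stand at 88% at 1000 CPM or more.

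The estimates centred near 0, where TMM scaling places the bulk of genes. The median log2 fold change over all genes tested was 0.002, with quartiles at -0.057 and 0.061. In the 5 level classes the median lay between 0.001 and 0.025, and the numbers at an unadjusted p under 0.05 were 340 higher and 349 lower at 10 to 100 CPM and 104 higher and 151 lower at 100 to 1000 CPM. The share at an unadjusted p under 0.05 was 5.34% under 1 CPM and 12.7% at 100 to 1000 CPM. All 4 day 35 libraries lay above all 4 day 2 libraries for 280 genes (1.82%) and below them for 315 (2.04%), while in meth rats the same held for 771 (5%) and 993 genes (6.44%). Presence and absence of transcripts differed by a few counts at most. As deposited, 10 genes had a count in every day 35 saline library and none at day 2, with at most 7 counts in a library, and 1 gene had the reverse. With libraries thinned to equal depth 6 genes stood on each side, with at most 4 counts in a library.

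**Figure D2:**
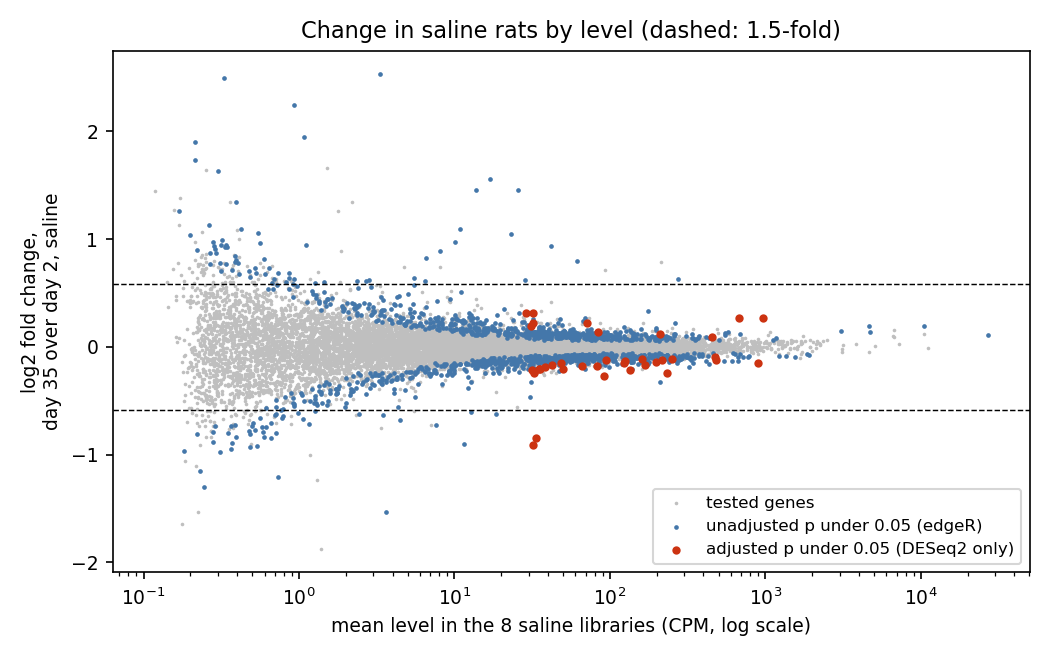
Log2 fold change of day 35 over day 2 in saline rats (vertical axis) against mean level in the 8 saline libraries (horizontal axis, CPM, log scale), 1 point per gene. DESeq2 gave no adjusted p to the scarcer genes; of the 37 it called (red), 2 lie beyond the dashed 1.5-fold lines, both below.

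The 2 identifiers with the smallest edgeR p in each direction, among genes at 1 CPM or more, show the size of change that came nearest to passing. ENSRNOG00000005260 had 71.76, 70.38, 67.99 and 69.94 CPM in day 2 replicates 13 to 16, and 62.46, 62.72, 60.87 and 61.82 CPM in day 35 replicates 9 to 12. All 4 day 35 libraries lay below all 4 day 2 libraries, and the groups averaged 70.0 ± 1.56 and 62.0 ± 0.826 CPM (SD, n = 4 each). As for every gene in bulk tissue, fewer cells of a type and less RNA per cell cannot be told apart in such a change. The log2 fold change was -0.18 (SE 0.029, 95% interval -0.24 to -0.12, edgeR adjusted p = 0.13).

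ENSRNOG00000030447 had the larger fold. It stood at 16.73, 16.49, 13.25 and 15.13 CPM at day 2 and at 10.86, 10.73, 8.866 and 9.886 CPM at day 35, again without overlap. Its log2 fold change was -0.61 (SE 0.108, 95% interval -0.83 to -0.38, edgeR adjusted p = 0.13), or 1.52-fold.

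Toward higher levels, ENSRNOG00000003213 had 24.23, 26.58, 26.46 and 24.88 CPM at day 2 and 29.9, 33.41, 29.96 and 34.29 CPM at day 35. The groups did not overlap, and replicates 10 and 12 were the highest of day 35. The log2 fold change was 0.32 (SE 0.056, 95% interval 0.20 to 0.44, edgeR adjusted p = 0.13). ENSRNOG00000000236 had 80.39, 77.8, 79.88 and 80.32 CPM at day 2 and 86.21, 88.55, 88.63 and 86.76 CPM at day 35, a log2 fold change of 0.14 (SE 0.026, 95% interval 0.08 to 0.19, edgeR adjusted p = 0.15). DESeq2 gave ENSRNOG00000005260, ENSRNOG00000003213 and ENSRNOG00000000236 adjusted p-values of 0.0012, 0.0017 and 0.0069, and gave ENSRNOG00000030447 none. None of the 4 passed in the alternatives other than DESeq2. Over all 16 alternatives the adjusted p ran from 0.0012 to 0.35 for ENSRNOG00000005260, from 0.0017 to 0.35 for ENSRNOG00000003213, from 0.0069 to 0.59 for ENSRNOG00000000236 and from 0.072 to 0.35 for ENSRNOG00000030447.

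In meth rats the same 4 identifiers stood near the day 35 saline level or between the 2 saline groups at both days. ENSRNOG00000030447 averaged 10.4 ± 1.45 CPM in day 2 meth and 10.1 ± 1.25 CPM in day 35 meth libraries (SD, n = 4 each), against 15.4 ± 1.60 in day 2 saline and 10.1 ± 0.92 in day 35 saline. Its 4 day 2 saline libraries were above each of the other 12. ENSRNOG00000000236 averaged 86.1 ± 1.25 and 87.6 ± 1.60 CPM in day 2 and day 35 meth, where day 2 saline averaged 79.6 ± 1.22. The log2 changes between days in meth rats were 0.07, 0.03, -0.05 and -0.05 for ENSRNOG00000003213, ENSRNOG00000000236, ENSRNOG00000005260 and ENSRNOG00000030447. The difference of the day change between saline and meth rats did not pass for any of the 4 (edgeR adjusted p = 0.21 to 0.32).

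**Figure D3:**
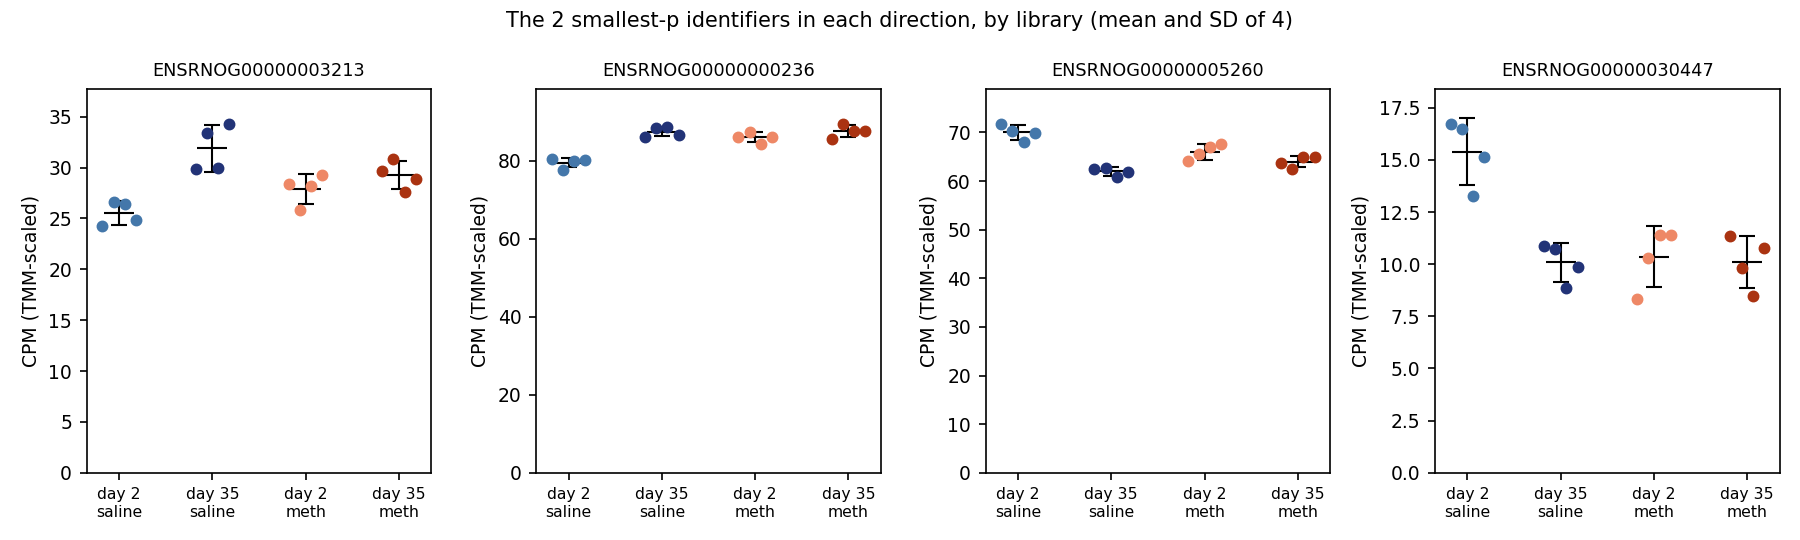
CPM (vertical axis, from 0) in each of the 16 orbitofrontal libraries for the 2 smallest-p identifiers in each direction; points are libraries and bars the mean and SD of 4. Day 2 saline stands at the low end for the first 2 panels and at the high end for the last 2, and the day 2 meth means (27.9, 86.1, 66.1 and 10.4 CPM) lie nearer to day 35 saline for ENSRNOG00000000236 and ENSRNOG00000030447.

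The position of the 2 saline groups against the meth libraries was also counted over more genes. The saline p that ranks them comes from a fit in which the meth libraries share the filter and the estimate of spread, but not the fold change. Of the 100 genes with the smallest saline p, day 2 saline lay farther from the mean of the meth groups than day 35 saline for 70 and nearer for 30. Of all genes tested, day 2 saline lay farther for 55.4%, and of those at an unadjusted p under 0.05 for 62.7%. Day 2 saline is the shallowest group, and the part of depth or index in this was not tested.

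The changes of the genes that DESeq2 called were small. The fold ran from 1.07 to 1.25 (median 1.17) in the 10 genes higher at day 35 and from 1.06 to 1.88 (median 1.13) in the 27 that were lower. DESeq2 gave no adjusted p to the scarcer genes, so the levels of the 37 were partly set by that filter. All 37 had the same direction in edgeR, with unadjusted p from 8.3e-06 to 0.0019 and edgeR adjusted p from 0.13 to 0.34. The 2 days did not overlap for 31 of the 37, against 1.82% higher and 2.04% lower of all genes; the 37 were called on the same contrast, so this is a description. The set depended on the libraries: DESeq2 called 13 genes without day 35 replicate 12, 7 of them among the 37, and 27 to 48 without any other saline library. It called 17 when fitted on the 8 saline libraries alone and 19 after thinning, with 8 and 14 of the 37 among them.

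Large estimated changes were described as a higher and a lower set, library by library. At 1 CPM or more, 33 genes were estimated over 1.5-fold higher and 20 over 1.5-fold lower at day 35. Of these 22 and 13 had an unadjusted p under 0.05, and they are described here as picked for their size, without a further test. In the 22 higher genes the median log2 level against the day 2 saline mean (of CPM + 0.5) was 1.23 in replicate 9 and 1.01 in replicate 10, but 0.21 in replicate 11 and 0.45 in replicate 12. Day 2 replicate 13 stood at 0.27, so replicate 11 overlapped the day 2 range of -0.19 to 0.27. Replicates 9 and 10 were the 2 highest day 35 libraries in 16 of the 22 genes (72.7%), against 17% of all genes at 1 CPM or more. This pair was picked after seeing that it stood highest in these genes, so its removal lowers their change in part by that choice. Without these 2 libraries the median log2 fold change of the 22 was 0.34 in place of 0.86. Of the 22, 6 were still over 1.5-fold higher and 6 still had an unadjusted p under 0.05. At all levels, 70 genes over 1.5-fold higher and 48 over 1.5-fold lower had such a p. It stayed under 0.05 with each library left out in turn for 22 and 18 of them. The day 35 libraries lay all above the day 2 libraries for 4 of the 22, against 1.82% of all genes, a count that the choice of large changes raises.

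The median of the 13 lower genes was low in every day 35 saline library. This median log2 level against the day 2 saline mean was -0.60, -0.64, -0.57 and -0.72 in replicates 9 to 12 and -0.12, 0.10, -0.21 and 0.01 in day 2 replicates 13 to 16. Without replicates 9 and 10 the median log2 fold change was -0.67 in place of -0.68, 10 of the 13 were still over 1.5-fold lower and 5 still had an unadjusted p under 0.05. Replicates 9 and 10 were picked on the higher genes and not on these, so the removals from the higher and lower sets are not alike. The median level of the 13 was 4.45 CPM. The days did not overlap for 7 of the 13, against 2.04% lower of all genes, and overlapped for the others. The meth libraries entered the choice through the filter and the shared estimate of spread, not through the fold change. In them the median stood at 0.04, -0.01, 0.03 and -0.11 in day 2 replicates 1 to 4 and at -0.62, -0.62, -0.57 and -0.54 in day 35 replicates 5 to 8. Of the 13 genes, 11 were lower at day 35 in meth rats as well, and 5 passed the test there (edgeR adjusted p under 0.05), where 1.38% of all genes were called lower.

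For the 22 higher genes the medians in the meth libraries were smaller. The median was 0.31, 0.69, 0.15 and 0.28 in day 35 meth replicates 5 to 8, against -0.08 to 0.10 in the day 2 meth libraries. The direction was the same in meth rats for 18 of the 22, and 0 passed the test there, where 0.448% of all genes were called higher; 6 had an unadjusted p under 0.05 with the same sign, a mark that 6.58% of all genes reached upward and 9.46% downward in meth rats.

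**Figure D4:**
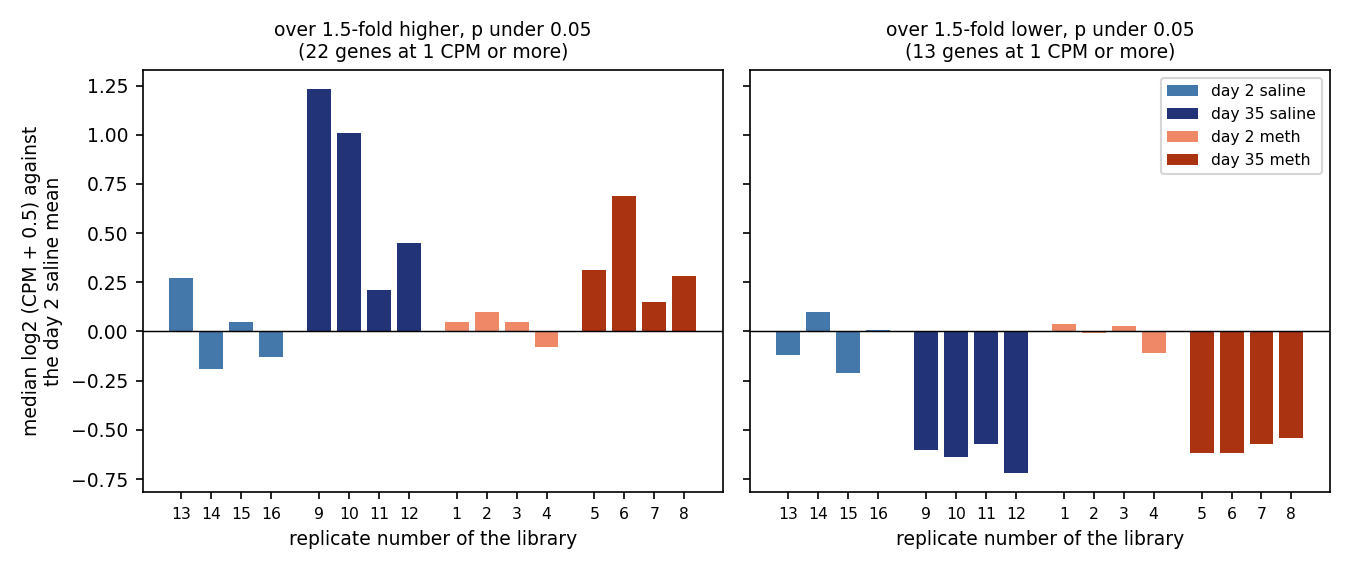
Median over genes of log2 (CPM + 0.5) against the day 2 saline mean (vertical axis), 1 bar per library (horizontal axis, replicate number), for the 22 higher (left) and 13 lower (right) genes past 1.5-fold at an unadjusted p under 0.05. On the left replicates 9 and 10 stand at 1.23 and 1.01 above the other libraries; on the right all 4 day 35 libraries of both drug groups lie between -0.72 and -0.54.

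The saline change was then set beside the change over the same days in meth rats, which shares no library with it. The spread of each gene was estimated from all 16 libraries, and a low estimate can make p small in both changes. Counts of genes with a small p in both are therefore a description. Over all genes tested, 55.2% had the same sign in both. Of the 1338 genes at an unadjusted p under 0.05 in saline rats, 878 (65.6%) had the same sign in meth rats, and of the 100 with the smallest saline p 73 did. Of the 37 genes called by DESeq2 in saline rats, 29 had the same sign in meth rats and 15 of these an unadjusted p under 0.05 there, which 6.58% of all genes reached upward and 9.46% downward. Across genes, Pearson's r between the saline and meth log2 changes was 0.08 and Spearman's rho 0.11 over all 15413 genes tested, 0.16 and 0.14 over the 13540 genes at 1 CPM or more, and 0.01 and 0.07 over the 14075 genes at a saline p of 0.05 or more. Each pair of changes comes from the same tissue, kit and lanes, and no p was attached. The sizes were smaller in meth rats, with median log2 changes of 0.15 (saline) and 0.04 (meth) for the 648 higher genes and -0.13 and -0.03 for the 690 lower genes, genes that were picked on the saline values.

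Genes called over the days in meth rats mostly had smaller estimates in saline rats. edgeR called 282 genes in meth rats (1.83% of those tested), DESeq2 called 554, and edgeR called 104 to 271 with 1 meth library left out, the fewest without day 2 meth replicate 4. For the 213 lower genes the median log2 change was -0.32 in meth and -0.02 in saline rats (saline quartiles -0.08 and 0.04), and for the 69 higher genes 0.18 and 0.04 (saline quartiles 0.00 and 0.07). The saline 95% interval did not reach the meth estimate for 204 of the 213 lower and 58 of the 69 higher genes, and it lay wholly within 1.2-fold for 136 and 62. The meth estimates were picked for their size, which widens this gap. They are also taken as exact here, without their own error, so 204 and 58 do not count genes whose change differed. The direct test of the difference, given below, called 21 genes. Of these, 17 of the 19 with the saline change above the meth change and 1 of the other 2 were called in meth rats. In saline rats 24 of the 213 were lower and 12 of the 69 higher at an unadjusted p under 0.05, against 4.48% and 4.2% of all genes, while 4 and 1 had such a p in the opposite direction.

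The genes with the largest falls in meth rats were mostly lower at day 35 in saline rats too, by a smaller estimate. Among the meth-called genes, 16 were over 2-fold lower at day 35 (median log2 change -1.36), a set of scarce transcripts with a median of 1.60 CPM in the saline libraries. In saline rats 14 of the 16 were also lower, with a median of -0.57 and a range of -1.21 to 0.12. The estimate was over 1.5-fold lower for 8, and 8 had an unadjusted p under 0.05 and were lower, against 4.48% of all genes. Their median log2 level against the day 2 saline mean was -0.28, -0.45, -0.43 and -0.47 in day 35 saline replicates 9 to 12, and -0.11 to 0.12 in the day 2 saline libraries, without overlap. In day 2 meth libraries it was 0.15 to 0.77 and in day 35 meth libraries -0.60 to -0.44. High day 2 and low day 35 values in meth rats are part of how these genes were chosen, so the place of the meth groups is a description only. The test of the difference in day change called 0 of the 16, and 9 had an unadjusted p under 0.05 in it, against 9.62% of all genes. The meth change that picked these genes is part of the tested difference, which raises the count of 9. Of these 16 genes, 5 also belong to the 13 lower genes described above.

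**Figure D5:**
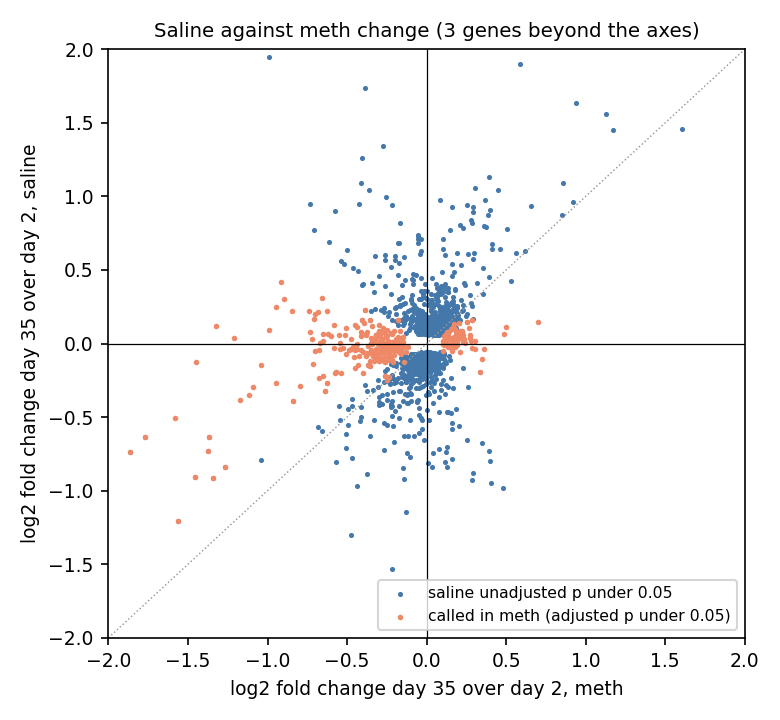
Log2 fold change of day 35 over day 2 in saline rats (vertical axis) against that in meth rats (horizontal axis), 1 point per gene, for genes at an unadjusted p under 0.05 in saline rats (blue) and genes called in meth rats (orange, drawn on top); the dotted line marks equal change and 3 genes lie beyond the axes. Most orange points lie near 0 on the saline axis, and those past -1 on the meth axis lie mainly below 0 on the saline axis, with a median of -0.57.

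A direct test of whether the day change differed between saline and meth rats called 21 genes (0.136% of 15413). In 19 of them the saline change was above the meth change, by 0.21 to 0.85 on the log2 scale. The saline changes of these 19 ran from -0.05 to 0.40 with a median of 0.09, and the meth changes from -0.63 to -0.14 with a median of -0.32. In all 19 the meth change was the larger in size. The saline change was positive in 18 and had an unadjusted p under 0.05 in 6, all higher at day 35. In the other 2 genes the saline change was below the meth change, with -0.56 and -0.19 in saline against positive values of 0.20 to 0.33 in meth rats. DESeq2 called 83 genes with another split, 57 with the saline change above the meth change and 26 below. Median-ratio size factors gave 8 genes, limma-voom 8, a filter at 1 CPM 9 and thinned libraries 4, each with the saline change above the meth change. With no filter on low counts 18 of the 21 were called, 16 with the saline change above the meth change and 2 below. With sequencing lane as a replicate block 4 genes were called, and leaving out any library other than day 2 meth replicate 1 (17 genes) gave 0 (without day 2 saline replicate 14) to 13 (without day 2 saline replicate 16). For 74.6% of all genes tested the 95% interval of the difference lay within 1.5-fold in either direction.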

How the data were processed

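Poly(A) RNA of rat orbitofrontal cortex was measured in 16 libraries in 4 groups; the central amygdala samples were not analysed here. Per the labels' protocols, a TruSeq RNA v2 kit and an Illumina HiSeq were used. Per the submitters' processing notes, reads were handled with TopHat, HTSeq and limma on build rn4, with versions, annotation and strand setting not given in the sources used here. Raw counts per Ensembl gene were deposited by the authors, with 5 HTSeq summary rows (31.17 to 32.52% of a saline library's reads) left out; reads with several alignments were not counted, so near-identical genes are understated. Replicates are pools of 2 rats; within-group pairs of saline libraries differed by 5.62 to 17.01 times the chi-square degrees of freedom, so all were kept.

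Genes passed edgeR's filterByExpr (15413), counts were TMM-scaled, and 1 model of 4 group means was fitted with glmQLFit (robust) and glmQLFTest (edgeR 4.0.16, R 4.3.3), adjusted over all genes tested. SE is the absolute log2 change over the root of the F statistic, and 95% intervals use the test's degrees of freedom. For some genes the reported p is larger than this SE would give, so their intervals are narrower than the test allows. Libraries with the same lane label share a lane; deviations of the same-lane saline pairs correlated by 0.246, -0.031, 0.134 and -0.037. Alternatives were other size factors, filters, limma-voom 3.58.1, DESeq2 1.42.0, a lane block, fewer groups in the fit, thinning and leaving out libraries. The code was tested on simulated data. Members, lists and tests were chosen with earlier results of these data known. The rule for named genes used symbols; as 0 identifiers matched, its fallback of at most 2 identifiers per direction (smallest edgeR p, mean of at least 1 CPM) was used, and the gene lists could not be run. The large-change sets, the DESeq2 repeats and the fit without replicates 9 and 10 were chosen after seeing the data.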

Additional observations from a re-analysis of the deposited data

Results flagged for a closer look

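A total of 3 measures of single saline libraries lay far from the other libraries of their group. Day 2 saline replicate 13 had 20.33 M gene counts, below the 23.19 to 23.54 M of the other libraries of its group. Day 2 saline replicate 14 had a TMM factor of 1.0175, above the others (1.0004 to 1.0033). Day 35 saline replicate 9 had 18348 genes with a count, above the 18042 to 18057 of the others. It was the deepest saline library at 48.47 M. Thinned to the shallowest depth it had 17455 genes with a count, within the 17450 to 17594 of its group. Of 24 groups of 4 values examined 3 stood out in this way, where chance gives about 1 in 20. Some of the measures are linked, such as depth and the number of genes with a count, so these 24 are not independent. The change between days differed between saline and meth rats for 21 genes by the direct test.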

How the results depend on the processing

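For saline day 35 against day 2, edgeR and limma-voom called 0 genes in all alternatives with every library, DESeq2 called 37, and leaving out 1 saline library gave 0 to 2. Genes at an unadjusted p under 0.05 were 508 to 756 higher and 636 to 769 lower with 1 saline library left out, 520 and 551 without day 35 replicates 9 and 10, and 415 and 519 in a fit of the 8 saline libraries. The difference between drug groups (21 genes) fell to 8 with median-ratio size factors, 9 with a filter at 1 CPM, 8 with limma-voom, 4 with thinned libraries and 4 with lane as a replicate block, and was 83 with DESeq2 and 0 to 17 with 1 library left out. With no filter on low counts it was 18. In meth rats (282 genes) DESeq2 called 554, and 104 to 271 were called with 1 meth library left out, only the fit without day 2 replicate 1 (271) being within 1.5 times. With lane as a replicate block 311 genes were called in meth rats, 249 of them among the 282, and 0 in saline rats. The 4 named genes kept their direction throughout; 3 of them passed with DESeq2 and with no other alternative. The alternatives for gene lists were not run. Depth limits genes under 1 CPM most.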
